A study of Mus musculus with 9 samples.

Results

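The genes described here encode the nuclear subunits of the last steps of oxidative phosphorylation: respiratory complexes III and IV, the electron carrier cytochrome c, and ATP synthase. They were chosen by symbol as all genes whose name begins with Uqcr, Cox4 to Cox8 or Atp5, together with Cyc1 and Cycs, which gave 42 of the 17769 genes in the deposited counts. Complex III had 9 of them, cytochrome c 1, complex IV 16 and ATP synthase 16. RNA came from mouse bone marrow cells sorted as MEP, the progenitors shared by the megakaryocyte and erythroid lineages, and each library holds the summed RNA of many cells. VF libraries (n = 3) came from mice with SclCre and the Jak2 V617F allele, 12 weeks after tamoxifen. E12 libraries (n = 3) came from mice with SclCre and a Jak2 Exon12 allele, 6 weeks after tamoxifen. WT libraries (n = 3) were also taken at 12 weeks, their label names neither Cre nor a mutant allele, and the strain C57BL/6N and 5 tamoxifen injections are stated for every library. SclCre is a recombinase driven by regulatory sequences of Scl (Tal1), a gene of blood stem and progenitor cells, and the labels say that the mutations were switched on by tamoxifen. The labels do not say whether the 3 libraries of a group are 3 mice, so p-values measure the spread between these libraries, which may be technical. Genotype, weeks after tamoxifen (for E12) and the sequencing facility's block of library numbers, which differs for each group, cannot be told apart. The numbers of VF and E12 lie close together, and those of WT lie far from both.

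Complex III takes electrons from ubiquinol and hands them to cytochrome c, a small soluble protein of the intermembrane space, and complex IV passes them from cytochrome c to oxygen. Both pump protons across the inner mitochondrial membrane, and ATP synthase lets the protons flow back through its membrane rotor while the head outside the membrane makes ATP. Each of these complexes also holds subunits encoded in mitochondrial DNA, which were not analysed here. Blood stem cells are known for low use of respiration, and erythroid progenitors for a high mitochondrial content.

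Total counts ran from 19256431 to 39736096 per library. Genes without any count made up 10.7% to 12.4% of the table in VF, 12.4% to 18.7% in E12 and 27.2% to 30.1% in WT libraries. A value of 0 in WT libraries therefore does not show that a transcript was absent. WT 50 stood apart: genes under 1 kb took 27.9% of its counts, against 6.92% to 14.1% in the other 8 libraries, and its log2 levels correlated with those of the other WT libraries at 0.844 and 0.879, against 0.92 between those 2. E12 5 held 3.37% hemoglobin counts, against at most 0.325% elsewhere. Both were kept, and results that rest on them are also given without them. Of the defining MEP markers, Kit, Gata1, Gata2 and Zfpm1 were present in every group, while Cd34, Fcgr3, Fcgr2b and Ly6a, which should be low, summed to 737 to 762 CPM in VF, 140 to 313 CPM in E12 and 7.89 to 38.2 CPM in WT libraries. CPM are counts divided by the library's TMM-scaled size and multiplied by 1000000.

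Promoter sequences are shown because several of these genes are textbook targets of the activators NRF1 and GABP. The part of these activators in the differences between the groups was not tested. RefSeq's promoter table (GRCm38.p6) held 32 of the 42 genes. The 250 bases before each start were searched on both strands for 6 motifs. Each of the 5 sequences below lies on the minus strand of its chromosome, is written 5′ to 3′ along the gene, ends at the base before the start and has its motif in capitals.
Cox6a1, chr5:115348959-115349208, with the NRF1 palindrome and the ETS core used by GABP on the opposite strand: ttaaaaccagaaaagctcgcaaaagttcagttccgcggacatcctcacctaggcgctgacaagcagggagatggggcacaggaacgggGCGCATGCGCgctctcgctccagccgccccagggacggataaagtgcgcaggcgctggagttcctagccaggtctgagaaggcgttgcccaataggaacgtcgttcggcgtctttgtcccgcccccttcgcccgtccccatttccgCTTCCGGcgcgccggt
Atp5k, chr5:108434400-108434519, with the NRF1 palindrome: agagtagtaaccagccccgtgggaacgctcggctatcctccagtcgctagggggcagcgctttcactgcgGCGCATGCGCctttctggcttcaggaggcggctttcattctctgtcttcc
Cycs, chr6:50566570-50566689, with the shorter NRF1 core: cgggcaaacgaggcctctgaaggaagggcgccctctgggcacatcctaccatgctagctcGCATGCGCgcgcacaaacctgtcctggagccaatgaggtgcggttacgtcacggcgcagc
Uqcr11, chr10:80406822-80406941, with the ETS core: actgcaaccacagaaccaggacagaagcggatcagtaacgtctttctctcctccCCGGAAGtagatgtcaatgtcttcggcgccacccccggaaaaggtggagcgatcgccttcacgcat
Uqcrh, chr4:116075071-116075190, with the ETS core on the opposite strand: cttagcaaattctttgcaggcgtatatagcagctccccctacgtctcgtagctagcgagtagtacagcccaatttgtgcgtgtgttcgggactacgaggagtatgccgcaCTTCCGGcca

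The NRF1 palindrome, which is the core GCATGCGC with GC before it, was in a promoter of 3 of the 32 genes (Cox6a1, Atp5k and Atp5g2), or 9.38%, against 1.81% of 10670 other tested genes and 0.877% of all 27025 genes of the table, each gene counted once where it has several promoters. The core alone, which the palindrome contains on both strands and which was added after the Cycs promoter had been read, was in 5 (15.6%, against 4.88% of other tested genes), adding Atp5l and Cycs. The ETS core CCGGAAG was in 8 (Atp5e, Atp5h, Atp5j, Atp5l, Cox6a1, Cox6b1, Uqcr11 and Uqcrh), or 25%, against 15.4%. The E-box CACGTG was in 4 (12.5%, against 9.78%). The YY1 core AAGATGGC (in Atp5j) and the ERRA element TCAAGGTCA (in Atp5g3) were each in 1, or 3.12%, against 2.42% and 0.309%. A match describes the letters in this window and says nothing of binding, and no match says only that these letters are absent from it.

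**Figure D1:**
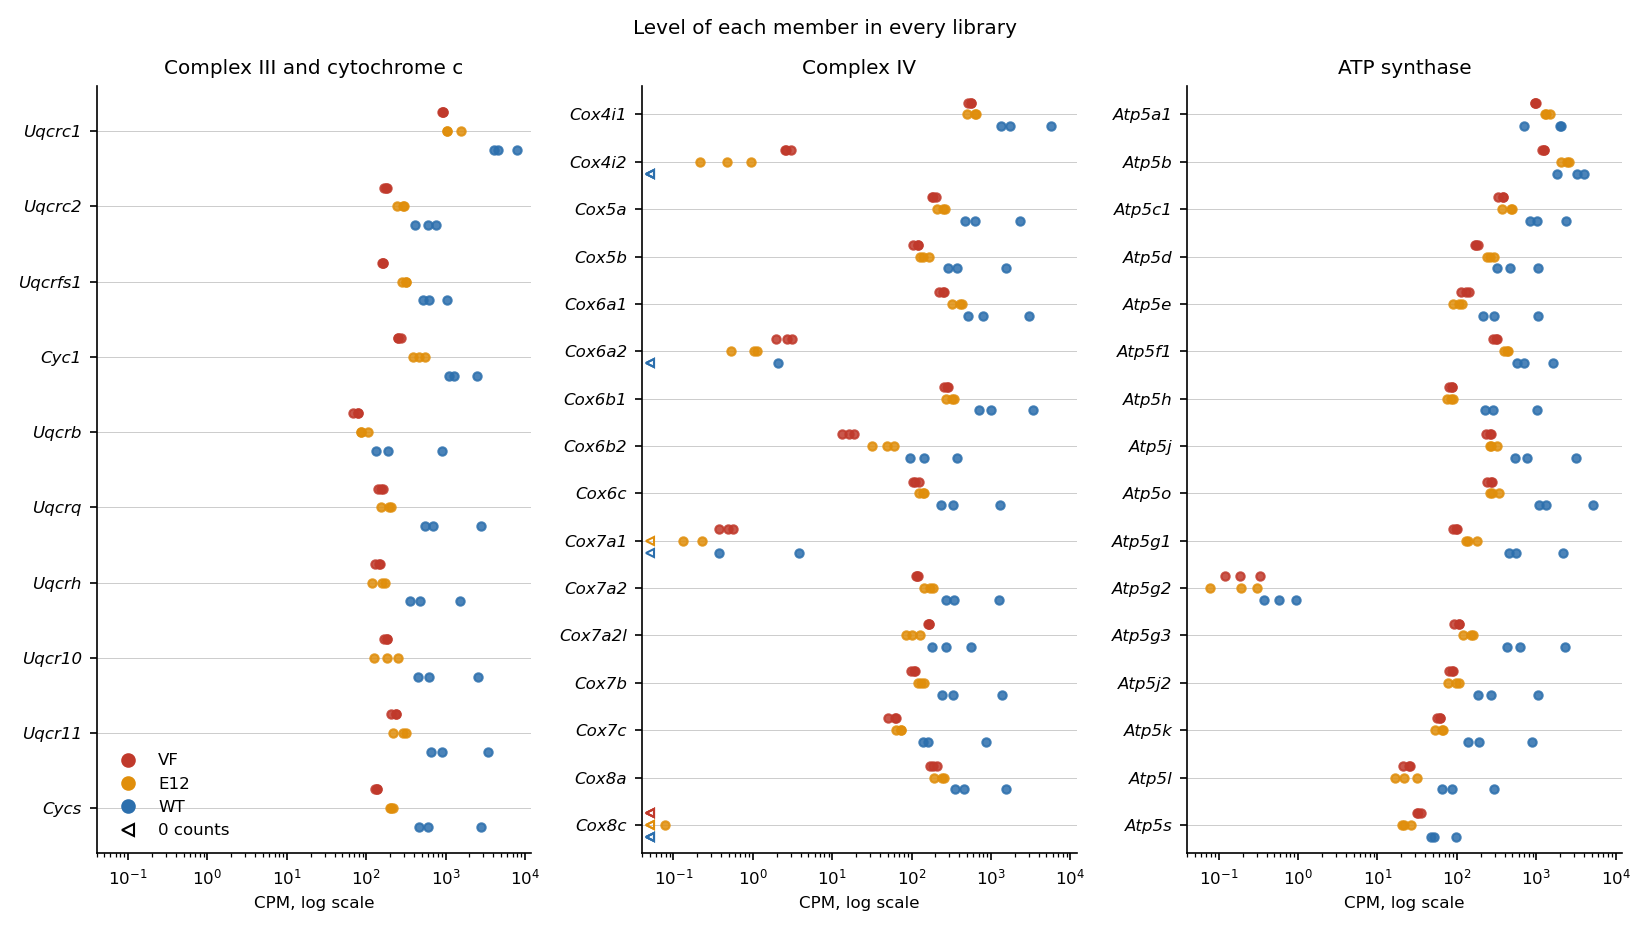
Level of each of the 42 genes in CPM (log axis) in every library, by complex, with VF above E12 above WT in each row. Each point is 1 library, and open triangles mark libraries with 0 counts. For most genes the VF and E12 points lie left of all 3 WT points, and WT 50 is the rightmost WT point for all but Uqcrc2, Atp5a1 and Atp5b among the well-expressed genes.

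Most subunit genes of all 3 complexes were lower in both mutants than in WT. In VF against WT, 35 of the 40 tested genes fell and 1 rose (median log2 fold change -2.56), where 20.9% of all 13608 tested genes fell, 27.7% rose and the median was 0.36. In E12 against WT, 35 fell and 1 rose (median -2.27), where 18.1% of all tested genes fell, 23.9% rose and the median was 0.36. These calls are an adjusted p under 0.05 by the quasi-likelihood test of edgeR, adjusted after Benjamini and Hochberg over all tested genes. By complex, VF cells had lower calls for 9 of 9 genes of complex III, Cycs, 11 of 15 of complex IV and 14 of 15 of ATP synthase. E12 cells had 9 of 9, Cycs, 12 of 15 and 13 of 15. The gene called higher in both was Cox4i2, which passed the filter on low counts only through the VF libraries. Cox8c and Atp5g2 had too few counts to be tested. For 10 members (Uqcrb, Cox5a, Cox5b, Cox6a1, Cox7c, Atp5h, Atp5o, Atp5g1, Atp5g2 and Atp5l) the annotation holds close copies (at least 90% identity over at least 50% of the length), and 13 members overlap exons of another gene, so their counts are uncertain where reads were shared. In 36 members every VF library lay below every WT library and in 1 above, where 23% and 39.7% of all tested genes did so. In E12 these numbers were 35 and 1, where 20.3% and 33% did so. The 2 comparisons share the WT libraries and are not independent of each other.

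The CPM summed over the 9 complex III genes averaged 2290 ± 74 in VF, 3147 ± 494 in E12 and 13855 ± 8024 in WT libraries (SD, n = 3 each). For complex IV the sums were 2135 ± 128 in VF, 2568 ± 322 in E12 and 11612 ± 10239 in WT libraries. ATP synthase summed to 4172 ± 167 in VF, 6126 ± 615 in E12 and 15993 ± 7811 in WT libraries. WT 50 alone stood at 23067, 23391 and 24911 CPM for the 3 complexes. Without it the WT sums were 10106 and 8391 CPM for complex III, 6600 and 4845 CPM for complex IV and 12701 and 10368 CPM for ATP synthase, all still above every VF and E12 library. All 42 genes together took 1.06% to 1.13% of the counts in VF, 1.25% to 1.45% in E12 and 2.09% to 3.38% in WT libraries, so the groups did not overlap and stood in the order VF, E12, WT. In bulk samples, fewer cells of a type and less RNA per cell cannot be told apart.

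In complex III, all 9 genes were lower in both mutants, and no mutant library reached the lowest WT library for any of them. Uqcrc1, a core protein on the matrix side of the complex, stood at 919, 923 and 913 CPM in VF, 1544, 1048 and 1034 CPM in E12 and 7952, 4560 and 4033 CPM in WT libraries. The VF libraries were nearly level, and every E12 library lay between them and WT. Its log2 fold change was -2.59 in VF (SE 0.38, edgeR adjusted p = 0.000997) and -2.19 in E12 (SE 0.37, edgeR adjusted p = 0.00326), the smallest p of the complex in E12. Cyc1, cytochrome c1, which passes electrons out of the complex, had 252, 277 and 249.9 CPM in VF, 546, 391 and 465 CPM in E12 and 2496, 1280 and 1098 CPM in WT libraries. It had the smallest p of the complex in VF (log2 fold change -2.64, SE 0.37, edgeR adjusted p = 0.000883) and was lower by 1.80 in E12 (log2 fold change -1.80, SE 0.36, edgeR adjusted p = 0.00579). Uqcrfs1, the Rieske iron-sulfur protein that takes the first electron from ubiquinol, had 157, 164 and 164 CPM in VF, 317, 282 and 316 CPM in E12 and 1028, 611 and 519 CPM in WT libraries. The 3 groups were stepped without overlap, with log2 fold changes of -2.15 in VF and -1.24 in E12.

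Among the small complex III subunits, Uqcr11 had the highest level per length of the complex averaged over the 9 libraries, although Uqcrc1 was above it in VF and in E12. It stood at 236, 239.9 and 204 CPM in VF, 320.0, 219.5 and 291 CPM in E12 and 3430.0, 900.1 and 651 CPM in WT libraries. VF and E12 overlapped, and WT 50 was far above WT 51 and WT 52. The log2 fold changes were -2.87 in VF (edgeR adjusted p = 0.0048) and -2.58 in E12 (edgeR adjusted p = 0.00909). Uqcrb, a subunit beside the ubiquinone site, had the largest p of the complex in both mutants, with 79.7, 79.7 and 68.5 CPM in VF, 86.2, 86.3 and 106 CPM in E12 and 892, 191 and 131 CPM in WT libraries. Its log2 fold change was -2.41 in VF (edgeR adjusted p = 0.0133) and -2.12 in E12 (edgeR adjusted p = 0.0255), and the VF call was lost without VF 3 (adjusted p = 0.0521 by edgeR) while the E12 call was lost without any 1 of the E12 libraries (adjusted p up to 0.0856). Uqcrc2, the other core protein and the longest of the 9 at 1882 bases, had log2 fold changes of -1.75 in VF and -1.09 in E12. These were the smallest falls of the complex only with WT 50 in the fit. Without it Uqcrc2 was at -2.10 in VF and -1.44 in E12, and Uqcrb at -1.23 and -0.94. Uqcrq, Uqcrh (the hinge protein) and Uqcr10 had log2 fold changes of -3.13, -2.48 and -2.78 in VF and -2.87, -2.40 and -2.71 in E12. Per kilobase, the level of the 9 genes spanned 93.3 (Uqcrc2) to 555 (Uqcrc1) CPM in VF, 148 (Uqcrc2) to 730 (Uqcrc1) CPM in E12 and 314 (Uqcrc2) to 3808 (Uqcr11) CPM in WT libraries.

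Cytochrome c fell in both mutants, although the median gene of its length was higher there. Cycs encodes the somatic form of the carrier, which also starts caspase activation when it leaves mitochondria, and its deposited length is 3059 bases, the longest of the 42. It had 138, 136 and 129 CPM in VF, 205, 198 and 217 CPM in E12 and 2805, 601 and 467 CPM in WT libraries. The groups did not overlap, VF was lowest and WT 50 was 5.25 times the mean of the other WT libraries. Its log2 fold change was -3.27 in VF (SE 0.65, edgeR adjusted p = 0.00383) and -2.64 in E12 (SE 0.63, edgeR adjusted p = 0.0105), and without WT 50 it was -2.13 in VF and -1.51 in E12. The 1636 other genes within 10% of its length had a median log2 fold change of 0.63 in VF and 0.66 in E12, so Cycs lay below them (differences -3.90 and -3.30), and 1.2% and 1% of those genes lay lower. Whether the counted transcripts of Cycs have the deposited length was not tested.

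Of complex IV, 11 genes fell in both mutants without overlap with WT: every general subunit other than Cox7a2l, which fell in E12 alone by this test, and the isoform Cox6b2. Cox4i1, the general isoform of the regulatory subunit 4 and the complex IV gene with the highest mean level per length in each group, stood at 563, 555 and 509 CPM in VF, 657, 503 and 634 CPM in E12 and 5787, 1755 and 1333 CPM in WT libraries. The log2 fold change was -2.45 in VF (SE 0.54, edgeR adjusted p = 0.00596) and -2.31 in E12 (SE 0.54, edgeR adjusted p = 0.0096). Cox5a and Cox5b, which surround the catalytic core, had log2 fold changes of -2.60 and -2.67 in VF and -2.25 and -2.35 in E12. Cox6c, Cox7b and Cox7c, small membrane subunits, had log2 fold changes of -2.46, -2.63 and -2.74 in VF and -2.21, -2.30 and -2.48 in E12. Cox8a, the general isoform of the smallest subunit, had 210.0, 188 and 169 CPM in VF, 244, 193 and 253 CPM in E12 and 1561, 456 and 354 CPM in WT libraries, with log2 fold changes of -2.07 and -1.78. Calls in E12 were the less stable ones: those of Cox6a1, Cox7a2, Cox7c and Cox8a were lost without any 1 of the E12 libraries, those of Cox5a and Cox5b without E12 2, that of Cox6c without E12 2 or E12 5 and that of Cox7b without E12 1 or E12 2.

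Subunits with a general and a tissue-restricted isoform differed in their isoform use. Cox4i2, known as the isoform of lung and of cells at low oxygen, had 3.07, 2.65 and 2.51 CPM in VF and 0.468, 0.952 and 0.217 CPM in E12, with 0 counts in all 3 WT libraries. Against 3 counts over the WT group as a floor, it was at least 73-fold higher in VF (215 counts) and at least 14.9-fold higher in E12 (42 counts). Cox4i2 was called higher by edgeR in VF (adjusted p = 0.00147) and in E12 (adjusted p = 0.00572). However, it passed the filter on low counts only through the VF libraries, and in a fit of E12 and WT alone it was not tested. Its E12 level was below VF in every library (log2 fold change -2.32, edgeR adjusted p = 0.19). Even in VF it made up 0.498% to 0.57% of the 2 isoforms' level per length, beside 99.4% to 99.5% from Cox4i1. Cox6a2, the heart and muscle isoform, had 2.74, 1.97 and 3.12 CPM in VF, 1.13, 0.533 and 1.04 CPM in E12 and 2.10 CPM in WT 50, with 0 counts in WT 51 and WT 52. It was not called in VF (log2 fold change 1.93, SE 1.62, edgeR adjusted p = 0.349) or in E12 (0.40, SE 1.59, edgeR adjusted p = 0.861). Without WT 50, the only WT library with counts, it was called higher in both, the only direction then possible. Its general partner Cox6a1 had 257, 247 and 222 CPM in VF, 429, 320 and 404 CPM in E12 and 2988, 805 and 522 CPM in WT libraries, with log2 fold changes of -2.57 and -1.90. E12 was above VF and below WT in every library.

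Cox6b2, described as a testis isoform of subunit 6b, fell in both mutants and its groups did not overlap. It had 16.1, 18.9 and 13.3 CPM in VF, 60.5, 32.1 and 49.7 CPM in E12 and 376, 145 and 96.4 CPM in WT libraries. No library of one group reached another group, and each E12 library was above each VF library. Its log2 fold change was -3.68 in VF (SE 0.53, edgeR adjusted p = 0.00095), the most negative of the 40, and -2.11 in E12 (SE 0.49, edgeR adjusted p = 0.0097). With length offsets, which take out each library's trend with gene length, it was -1.95 in VF (edgeR adjusted p = 0.000496) and -0.23 in E12 (edgeR adjusted p = 0.504). The general isoform Cox6b1 had 288, 280 and 254 CPM in VF, 338, 270 and 324 CPM in E12 and 3377, 1001 and 709 CPM in WT libraries, with log2 fold changes of -2.63 and -2.45. Cox6b2 therefore made up 4.1% to 5.23% of the level per length of both isoforms in VF, 8.87% to 12.8% in E12 and 8.34% to 10.6% in WT libraries. VF did not overlap with E12 or WT in this share, and E12 and WT overlapped.

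In the subunit 7a family, a larger share came from Cox7a2l in VF than in E12 or WT libraries, without overlap. It is known for its part in joining complexes III and IV into supercomplexes, and had 168, 162 and 166 CPM in VF, 102, 84.0 and 128 CPM in E12 and 555, 272 and 184 CPM in WT libraries. VF lay between E12 and WT without overlap, with E12 lowest. It missed the threshold in VF (log2 fold change -1.03, SE 0.39, edgeR adjusted p = 0.0532), passed it with DESeq2, with RLE scaling and without both WT 50 and E12 5, and fell in E12 (-1.69, SE 0.40, edgeR adjusted p = 0.00989). The general Cox7a2 had 117, 122 and 112 CPM in VF, 186, 144 and 170 CPM in E12 and 1265, 344 and 269 CPM in WT libraries, with log2 fold changes of -2.42 and -1.91. Cox7a2l made up 46.3% to 49% of the family's level per length in VF, 26.5% to 32.9% in E12 and 22.2% to 34.1% in WT libraries. Its transcript is longer (1149 bases, against 754 for Cox7a2), and the part of length in this share was not tested for the comparison with WT. Cox7a1, the heart and muscle isoform, had 0.375, 0.559 and 0.486 CPM in VF, 0, 0.228 and 0.13 CPM in E12 and 3.81, 0.374 and 0 CPM in WT libraries, and was called in neither mutant (edgeR adjusted p = 0.446 and 0.136). Cox8c, the testis isoform of subunit 8, had 2 counts in E12 libraries and 0 counts elsewhere.

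In ATP synthase, the alpha and beta subunits of the catalytic head had smaller differences from WT than most subunits in the fit of all libraries, where WT 50 was low for both. Atp5b, the catalytic beta subunit, stood at 1255, 1236 and 1194 CPM in VF, 2560, 2061 and 2466 CPM in E12 and 1807, 4047 and 3274 CPM in WT libraries. It fell in VF (log2 fold change -1.31, SE 0.35, edgeR adjusted p = 0.0136), lost that call without any 1 of the VF libraries (adjusted p up to 0.0598 by edgeR), and in E12 overlapped with WT (-0.36, SE 0.35, edgeR adjusted p = 0.423). Atp5a1, the alpha subunit beside it, had 960, 985 and 960 CPM in VF, 1506, 1274 and 1318 CPM in E12 and 708, 2026 and 1983 CPM in WT libraries, and was called in neither mutant (log2 fold change -0.70, edgeR adjusted p = 0.17 in VF, and -0.20, edgeR adjusted p = 0.707 in E12). For both genes WT 50 was the lowest WT library. With WT 50 in the fit, Atp5s (-0.99) already fell less than Atp5b in VF. Without WT 50, the log2 fold changes in VF were -1.72 for Atp5b and -1.18 for Atp5a1. Beside them, Atp5s was at -0.71, Atp5e at -1.13 and Atp5f1 at -1.21, so in VF Atp5a1 no longer had the smallest fall of the complex. Atp5a1 and Atp5b were then both called lower in VF, and in E12 both joined the calls. Those then numbered 37 lower and 2 higher, where 24% and 28.4% of all tested genes were. The gamma subunit of the central stalk, Atp5c1, fell with log2 fold changes of -1.96 in VF and -1.66 in E12. The delta and epsilon subunits, Atp5d and Atp5e, had -1.81 and -2.01 in VF and -1.21 and -2.31 in E12. In E12 the calls of Atp5d (edgeR adjusted p = 0.041) and Atp5f1 (edgeR adjusted p = 0.033) were lost without any 1 of the VF or E12 libraries, Atp5j without E12 2 or E12 5, and Atp5c1, Atp5j2 and Uqcrc2 without E12 2. In VF the call of Atp5e was lost without VF 3 and that of Atp5s without any 1 of the VF libraries.

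The peripheral stalk holds the head still while the rotor turns. Its subunit Atp5o, the oligomycin sensitivity-conferring protein at the top of the stalk, had the highest level per length of the complex averaged over the 9 libraries and over WT, but came after Atp5b and Atp5a1 in VF and in E12. It stood at 269, 276 and 241 CPM in VF, 337, 266 and 280 CPM in E12 and 5207, 1311 and 1074 CPM in WT libraries. The log2 fold change was -3.27 in VF (SE 0.60, edgeR adjusted p = 0.0027) and -3.10 in E12 (SE 0.59, edgeR adjusted p = 0.00507), the smallest p of the complex in E12, while VF and E12 overlapped. Atp5h, the d subunit, had 87.7, 86.2 and 79.2 CPM in VF, 88.7, 74.7 and 85 CPM in E12 and 1032, 288 and 227 CPM in WT libraries, so VF and E12 overlapped and both lay below WT (log2 fold changes -2.61 and -2.64). Atp5f1, the b subunit, and Atp5j had -1.67 and -2.55 in VF and -1.21 and -2.39 in E12. Atp5j shares 397 exonic bases on the opposite strand with Gabpa, which encodes the GABP alpha subunit, and since the libraries carry no strand, reads of the 2 genes cannot be told apart there.

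The c ring of the rotor is made of 1 protein encoded by 3 genes, which differ in the part that is cut off on import. Atp5g1 had 101, 97.6 and 90.6 CPM in VF, 181, 138 and 130.3 CPM in E12 and 2202, 559 and 455 CPM in WT libraries. It had the smallest p of the complex in VF (log2 fold change -3.48, SE 0.60, edgeR adjusted p = 0.00206) and was also lower in E12 (-2.84, SE 0.58, edgeR adjusted p = 0.0063). Atp5g3 had 106, 107 and 92.5 CPM in VF, 151, 121 and 161 CPM in E12 and 2290, 617 and 428 CPM in WT libraries, with log2 fold changes of -3.45 and -2.94. In both, E12 lay above VF and below WT without overlap. Atp5g2 had 0.122 to 0.335 CPM in VF, 0.0781 to 0.304 CPM in E12 and 0.374 to 0.938 CPM in WT libraries, and 2 pseudogene copies of it in the annotation reach up to 100% identity, so its low counts are uncertain. Nearly all c subunit transcripts came from Atp5g3 and Atp5g1. Per length, Atp5g1 made up 44.1% ± 0.891 in VF, 46.3% ± 5.26 in E12 and 44.8% ± 1.99 in WT libraries (SD, n = 3 each), and Atp5g3 made up 55.7% ± 0.83, 53.7% ± 5.21 and 55.1% ± 2.02 in the same groups. Of 9 exact two-sided permutation tests of these shares, the smallest p was 0.1, the lowest that 3 libraries against 3 allow, and all adjusted p were 0.787 or 0.8. The difference between VF and WT was -0.71 percentage points for Atp5g1 and 0.63 for Atp5g3.

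The small membrane subunits Atp5j2, Atp5k and Atp5l (f, e and g, which shape the dimer) had log2 fold changes of -2.57, -2.78 and -2.64 in VF and -2.43, -2.71 and -2.68 in E12. Atp5l has 13 such close copies elsewhere in the genome and its level is uncertain. Atp5s, coupling factor B, was the only tested ATP synthase gene with every E12 library below every VF library, at 35.8, 31.3 and 32 CPM in VF, 20.2, 21.3 and 26.6 CPM in E12 and 98.7, 51.3 and 47 CPM in WT libraries. It fell by edgeR in VF (log2 fold change -0.99, adjusted p = 0.0263) and in E12 (-1.53, adjusted p = 0.00642).

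**Figure D2:**
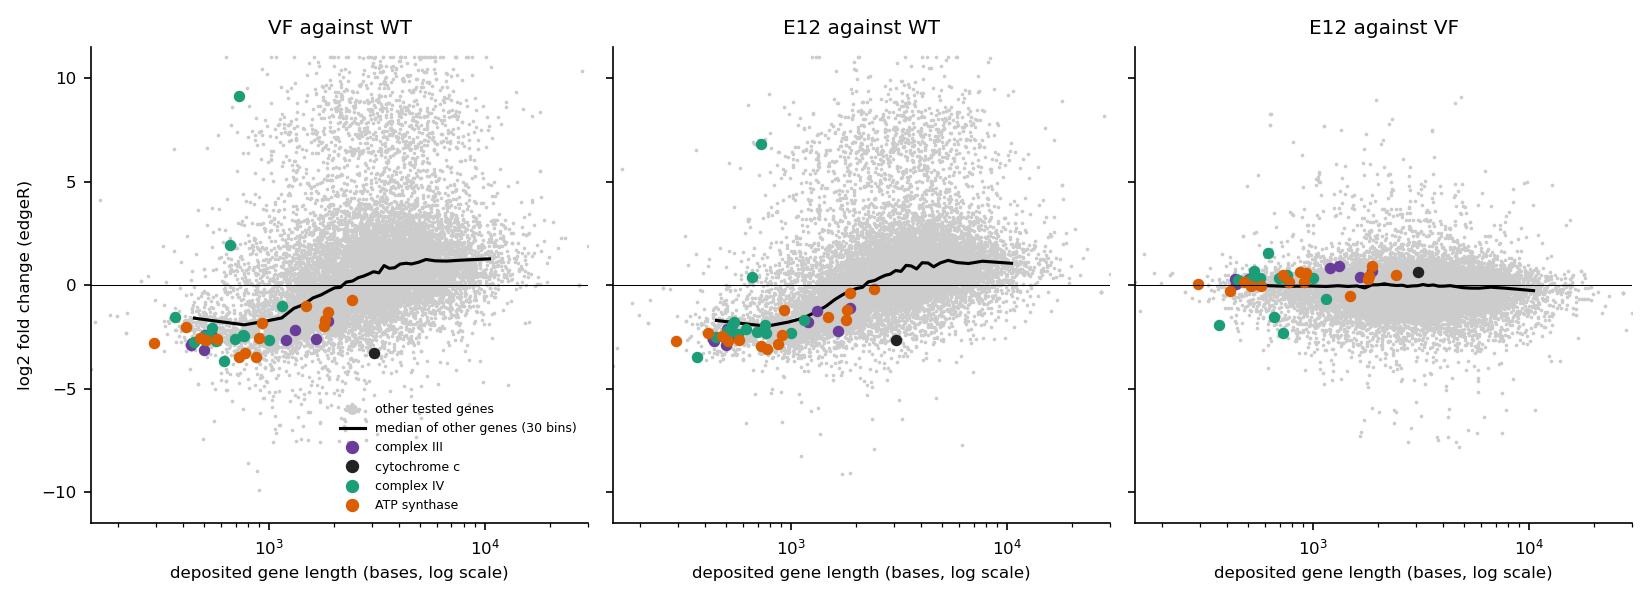
Log2 fold change of every tested gene against its deposited length in bases (log axis), in 3 panels: each mutant against WT, then E12 against VF. Grey points are other genes, drawn at the frame's edge where they exceed 11, the line is their median in 30 bins, and coloured points are the members. In the 2 panels against WT the line rises with length and most members lie on or under it, and in the third the line is flat near 0.

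Members are mostly short, and short genes were lower in both mutants, so each was set beside other genes of its length. Of other tested genes under 500 bases, 32.5% fell in VF and 29.3% in E12, and 7 of 8 members fell in each. From 500 to under 750 bases other genes had a median log2 fold change of -2.01 in VF and -2.10 in E12, with 58.2% and 59.9% lower, and 12 of 14 members fell in each (medians -2.59 and -2.23). From 750 to under 1000 bases 54.7% of other genes fell in VF and 56.3% in E12, and 6 of 6 members in each. From 1000 to under 1500 bases 50.6% of other genes and 4 of 5 members fell in VF, and 52% and 5 of 5 in E12. From 1500 to under 2500 bases other genes had medians of -0.19 in both, with 26.6% and 20.6% lower, while 5 of 6 members fell in VF (median -1.71) and 4 of 6 in E12 (median -1.15). At 2500 bases and over 8.03% of other genes fell in VF and 5.34% in E12, and the 1 member there, Cycs, fell in both. The members' own log2 fold changes correlated with length across genes (Spearman 0.31 in VF and 0.56 in E12, n = 40), against 0.44 and 0.49 over 13568 other genes. These values are across genes of the same libraries and are descriptions.

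Each member's log2 fold change was then taken minus the median of other genes within 10% of its length. In VF, 36 of 40 members lay below those genes, with a median difference of -0.76, and in E12 32 of 40, with a median difference of -0.45. After Cycs, the farthest below in VF were Atp5k (-2.63, but only 2 other genes share its length), Uqcrc1 (-1.99), Atp5g1 (-1.78), Cox6b2 (-1.66), Atp5c1 (-1.57), Uqcrc2 (-1.47), Atp5g3 (-1.41) and Atp5o (-1.40). In E12, Uqcrc1 was at -1.60, Atp5c1 at -1.28, Atp5o at -1.18, Atp5g1 at -1.04 and Atp5g3 at -0.95, whereas Cox6b2 was at 0.02 and Uqcrfs1 at 0.04. In VF 4 members lay above their length group: Cox4i2, Cox6a2, Cox7a2l (0.55) and Cox7a1 (0.25). Core proteins of complex III, the c ring and the stalk protein Atp5o thus stood below genes of their length in both mutants, and in E12 6 members of complex IV lay above theirs.

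**Figure D3:**
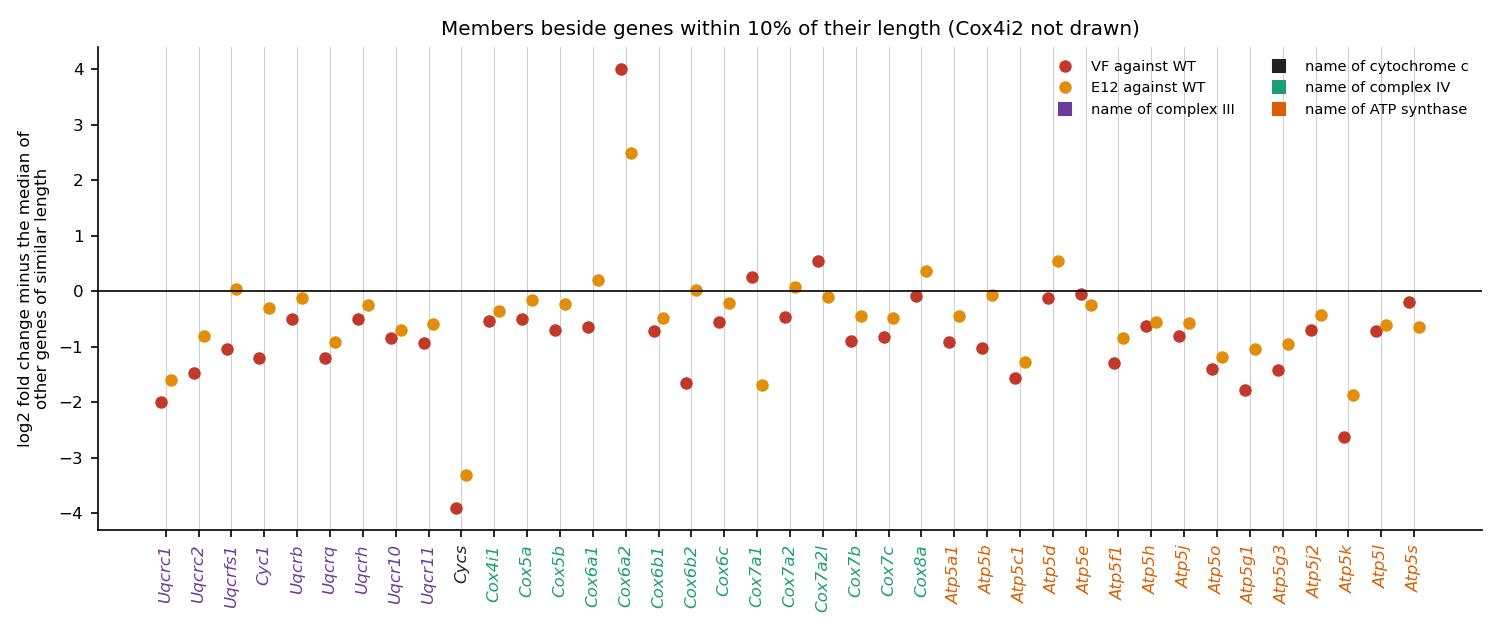
For each tested member except Cox4i2, the log2 fold change minus the median of other genes within 10% of its length, for VF against WT (red) and E12 against WT (orange). Members are ordered by complex, and the line marks 0. Cycs lies lowest in both comparisons at -3.90 and -3.30, and for most members the VF point lies below the E12 point.

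With offsets for gene length in the fit, VF still had 31 lower and 2 higher calls against WT, where 29.7% of all tested genes were lower and 17.7% higher (members' median -0.76, all tested genes -0.23). E12 had 17 lower and 1 higher, where 20.2% were lower and 13% higher (medians -0.44 and -0.15). By complex, the lower calls in VF were 8 of 9 for complex III, Cycs, 10 of 15 for complex IV and 12 of 15 for ATP synthase. In E12 they were 6 of 9, Cycs, 1 of 15 and 9 of 15, and the 1 of complex IV was Cox4i1. With the same offsets and without WT 50 and E12 5, a setting added after the data had been seen, the lower and higher calls were 34 and 2 in VF (34.1% of all tested genes lower and 23.1% higher) and 27 and 3 in E12 (24.1% and 16.9%), so the E12 count moved more than the VF count. Atp5d, lower in E12 without offsets, was among the 3 higher ones.

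**Figure D4:**
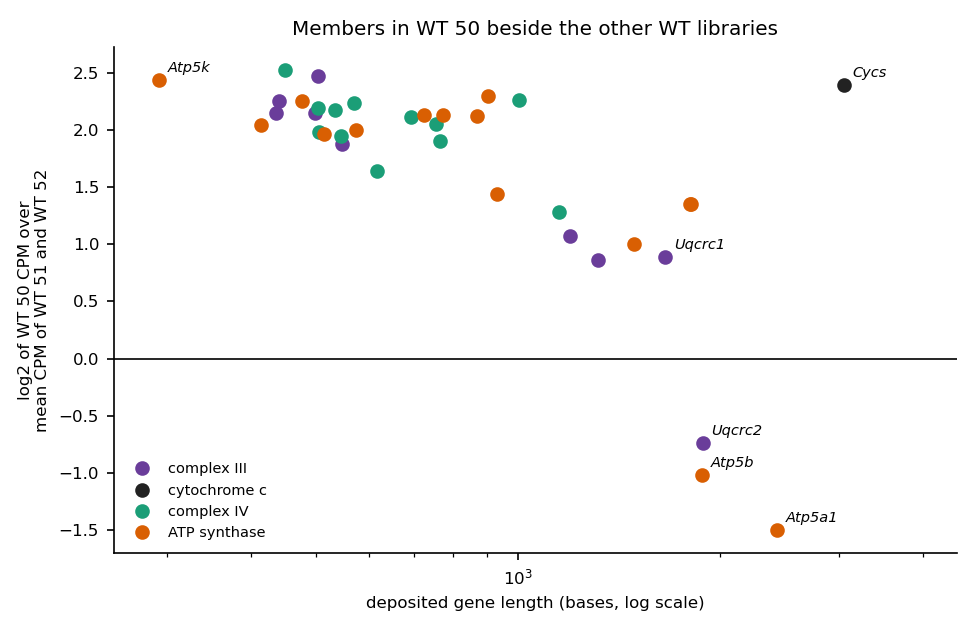
Log2 ratio of the CPM of WT 50 to the mean CPM of WT 51 and WT 52 for 37 members, against deposited gene length in bases (log axis), coloured by complex. Most short genes lie near a log2 ratio of 2, while Uqcrc2, Atp5b and Atp5a1 lie below 0 and Cycs lies with the short genes.

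WT 50 set the size of many differences. Of the 37 members outside the low-count isoforms, 34 were higher in WT 50 than in the mean of WT 51 and WT 52 and 3 lower (Uqcrc2, Atp5b and Atp5a1), with ratios from 0.353 (Atp5a1) to 5.75 (Cox7c) and a median of 4.11. The ratio fell with length across genes (Spearman -0.63, n = 37). Without WT 50 the members' median log2 fold change was -1.63 in VF and -1.34 in E12. There were 36 lower and 2 higher calls in VF, where 27.1% of all tested genes were lower and 32.8% higher. In E12 there were 37 lower and 2 higher calls, where 24% of all tested genes were lower and 28.4% higher. The 2 higher calls in each were Cox4i2 and Cox6a2, which had 0 counts in WT 51 and WT 52. The lower calls therefore did not rest on WT 50, while the size of the differences did. Calls against WT in E12 were most affected by E12 2: without it 20 members were lower (9.48% of all tested genes), without E12 1 27 (12%) and without E12 5 26 (11.1%). Without VF 1, VF 2 and VF 3 in turn, 33, 33 and 31 members were lower in VF (14.8%, 14.6% and 14.1% of all tested genes) and 1 was higher (20.8%, 20.7% and 20.1%).

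Between the mutants, E12 tended to the higher level but no member passed the threshold in the fit of all libraries. The median log2 fold change of E12 against VF was 0.29 over the 40 members, against -0.05 over all tested genes. In the fit of all 9 libraries 0 members passed in either direction by edgeR, where 1.02% of all tested genes were lower and 2.19% higher, and 1 was lower and 5 higher at an unadjusted p under 0.05. All 3 E12 libraries lay above all 3 VF libraries for 19 members and below them for 5, where 28.2% and 31.3% of all tested genes did so. Fitted with the VF and E12 libraries alone, 18 members were higher and 4 lower (25.4% and 22.6% of all tested genes). DESeq2 called 1 higher (Atp5b) and 1 lower (Cox4i2), where it called 6.32% of all tested genes higher and 6.14% lower. On the deposited levels limma called 3 higher (Cox6b2, Cyc1 and Uqcrfs1) and 1 lower (Cox7a2l), where it called 7.15% and 5.96%. Without WT 50 in the fit, 9 members were higher and 1 lower (12.8% and 10.7% of all tested genes).

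The smallest p between the mutants belonged to Uqcrfs1 in complex III, Cox6b2 in complex IV and Atp5b in ATP synthase. Uqcrfs1 was 0.92 higher in E12 than in VF on the log2 scale (SE 0.29, edgeR adjusted p = 0.137), Cox6b2 1.56 higher (SE 0.49, edgeR adjusted p = 0.127) and Atp5b 0.94 higher (SE 0.35, edgeR adjusted p = 0.192). In all 3 the E12 libraries lay above the VF libraries without overlap. The largest p of each complex belonged to Uqcr10, with 181, 126 and 249 CPM in E12 and 181, 184 and 167 CPM in VF, to Cox4i1 and to Atp5h, whose E12 and VF libraries overlapped. The 18 members of 750 bases and over had a median of 0.48, with 12 above VF in every library, and the 22 shorter ones 0.22, with 7. Across the 40 members the log2 fold change correlated with length at a Spearman of 0.49, against -0.03 over other tested genes. The 5 members with all E12 libraries below VF were Cox4i2, Cox6a2, Cox7a1, Cox7a2l and Atp5s. With length offsets 12 members were higher and 0 lower (7.96% and 2.89% of all tested genes), among them Cyc1, Uqcrfs1, Uqcrc2, Cox6b2, Atp5b, Atp5d, Atp5g1 and Atp5g3.

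**Figure D5:**
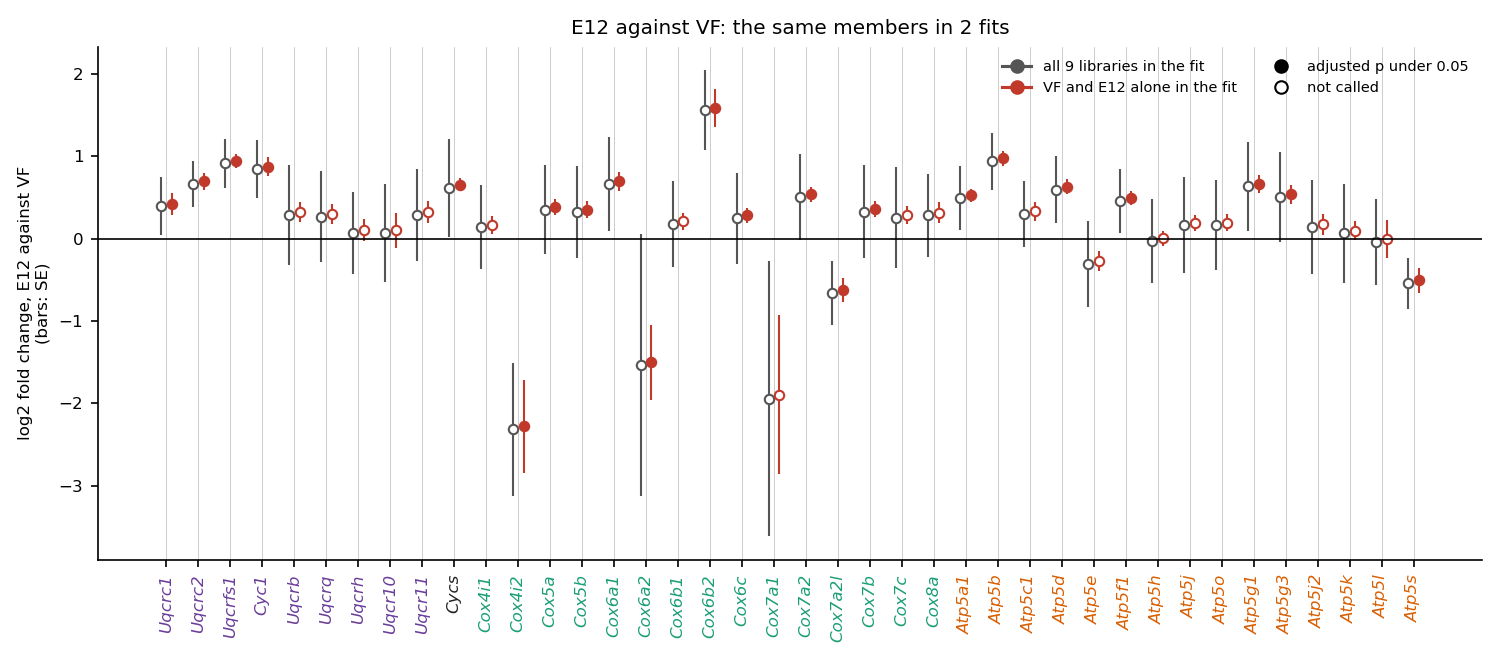
Log2 fold change of E12 against VF with its standard error for each tested member, from the fit of all 9 libraries (grey) and of the 6 mutant libraries alone (red), with filled points for an adjusted p under 0.05. The values are nearly the same in both fits and the bars are shorter without the WT libraries. Cox6b2 is highest at 1.56, and Cox4i2, Cox7a1 and Cox6a2 are lowest.

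The summed CPM of the complexes did not keep one ratio to each other across the groups. Tested genes are 436 to 1882 bases long in complex III, 366 to 1149 in complex IV and 292 to 2431 in ATP synthase. The sums were not adjusted for length, and the part of length in these ratios was not tested. The summed CPM of ATP synthase were 1.80 to 1.84 times those of complex III in VF, 1.83 to 2.05 times in E12 and 1.08 to 1.26 times in WT libraries, so both mutants lay above WT. Atp5a1 and Atp5b, the longest ATP synthase genes, gave 51.9% to 54.1% of the ATP synthase sum in VF, 60.8% to 61% in E12 and 10.1% to 50.7% in WT libraries. With those 2 left out, the ratio was 0.828 to 0.885 in VF, 0.718 to 0.801 in E12 and 0.609 to 0.971 in WT libraries. VF lay above E12 in every library, and the overlap of both with WT came from WT 50 (0.971) alone, since WT 51 and WT 52 were at 0.656 and 0.609. The summed CPM of complex IV were 0.902 to 0.964 times those of complex III in VF, 0.762 to 0.872 times in E12 and 0.577 to 1.01 times in WT libraries. VF again lay above E12 in every library. The WT range held both only through WT 50, at 1.01, while WT 51 and WT 52, at 0.653 and 0.577, were below every VF and E12 library.

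Genes that work with these complexes were counted from lists made from textbook knowledge, beside 20.9% of all tested genes lower and 27.7% higher in VF, and 18.1% and 23.9% in E12. With length offsets those shares were 29.7% and 17.7% in VF and 20.2% and 13% in E12. Of 4 subunits or partners that the symbol rule misses, 4 fell in VF and 3 in E12. With length offsets 1 of the 4 (Atpif1) was lower in each mutant and Usmg5 was higher in E12 (log2 fold change 0.71, edgeR adjusted p = 0.00832), with medians of -0.15 in VF and 0.10 in E12. Ndufa4, now counted with complex IV, averaged 299 CPM in VF, 283 CPM in E12 and 1387 CPM in WT libraries. Atpif1, the inhibitor that stops ATP synthase from running backwards, averaged 648 CPM in VF, 736 CPM in E12 and 6039 CPM in WT libraries (log2 fold changes -3.22, edgeR adjusted p = 0.00366, and -3.04, edgeR adjusted p = 0.00648). The ATP synthase membrane proteins Usmg5 and 2010107E04Rik had log2 fold changes of -1.75 and -2.16 in VF and -1.50 (edgeR adjusted p = 0.0769) and -1.89 in E12. Complex III assembly factors fell for 5 of 6 genes in VF and 4 of 6 in E12, and with length offsets for 4 in each. Bcs1l, which inserts the Rieske protein, had the smallest p (-1.89 in VF and -1.82 in E12), Uqcc2 had -2.74 and -3.24 and Uqcc3 -2.13 and -2.45, and Ttc19 was called in neither. Of 25 complex IV assembly factors 18 fell and 3 rose in VF, and 17 fell and 3 rose in E12. Cox10, an enzyme of heme a synthesis, was lower (-2.21 and -1.81), and those that rose in both were Cox11, Cox15 and Coa5. Coa5 was also higher in E12 than in VF (log2 fold change 0.996, edgeR adjusted p = 0.0436). These 3 genes are 2259, 4798 and 3862 bases long. With length offsets 12 fell and 2 rose in VF, and 9 fell and 3 rose in E12. ATP synthase assembly factors fell for 2 of 3 genes in VF (Atpaf2 and Tmem70) and 1 of 3 in E12 (Atpaf2).

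In complex II, which feeds ubiquinol to complex III, Sdhb, Sdhc and Sdhd fell in both mutants (with length offsets Sdhc was not called in E12, edgeR adjusted p = 0.313), while Sdha, the longest, was at 615 CPM in VF, 778 CPM in E12 and 746 CPM in WT libraries on average and was not called. Of 18 other mitochondrial proteins (import pores, carriers, chaperones, citrate synthase and inner membrane organisers) 12 fell and 0 rose in VF, by edgeR, with 0 higher at an unadjusted p under 0.05. In E12, 8 fell and 1 (Opa1, a fusion protein) rose. With length offsets 15 fell and 0 rose in VF, and 6 fell and 3 rose in E12. Examples are Phb (-3.14 in VF and -2.57 in E12), Chchd3 (-1.62 and -0.91) and Vdac2 (-1.76 and -1.23). Citrate synthase Cs averaged 189 CPM in VF, 467 CPM in E12 and 343 CPM in WT libraries, and the chaperone Hspd1 342, 992 and 692 CPM in the same groups. For both genes E12 averaged above VF, and neither difference passed (log2 fold changes 1.30 and 1.54, edgeR adjusted p = 0.0862 and 0.0628).

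Of 15 regulators of respiratory genes, 2 fell (Tfam, which packages mitochondrial DNA and helps start its transcription, and Tfb1m, which methylates the small mitochondrial ribosomal RNA) and 2 rose (Ppargc1a and Gabpb1) in VF, and 1 fell (Tfam) and 2 rose (Polrmt, the polymerase that transcribes mitochondrial DNA, and Pprc1) in E12. The median log2 fold changes were -0.04 and 0.28, against 0.36 over all tested genes in each comparison. These genes are long (median 3762 bases), and with length offsets 6 fell and 0 rose in VF (median -0.61), and 4 fell and 0 rose in E12 (median -0.57), by edgeR. Nrf1 averaged 105 CPM in VF, 132 CPM in E12 and 108 CPM in WT libraries, and Gabpa averaged 55.9, 69.9 and 30.1 CPM in those groups. Tfam was at 58 CPM in VF, 84.2 CPM in E12 and 129 CPM in WT libraries (log2 fold change -1.16 in VF, edgeR adjusted p = 0.0023). Ppargc1a, the coactivator PGC-1 alpha, averaged 0.66 CPM in VF and 0.13 CPM in E12 and had 0 counts in WT libraries. Like Cox4i2, it passed the filter on low counts only through the VF libraries, so against WT it could only be called higher.

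Lineage markers also differed between the groups. The 14 erythroid markers summed to 1290 to 2018 CPM in VF, 9311 to 13180 CPM in E12 and 23559 to 37069 CPM in WT libraries, and 11 of 14 fell in VF against WT while 4 fell and 2 rose in E12 (median log2 fold changes -3.69 and 0.06). Their summed level stood in the order VF, E12, WT, and the megakaryocyte and stem sums given below stood in the reverse order. Between E12 and VF, 12 of 14 erythroid markers were higher in E12 in the fit of all 9 libraries (median 4.02). In that fit 0 members passed, and with VF and E12 alone 18 were higher and 4 lower (25.4% and 22.6% of all tested genes). The 15 megakaryocyte markers summed to 2264 to 2915 CPM in VF, 487 to 603 CPM in E12 and 69.5 to 198 CPM in WT libraries, where Itgb3, Ppbp and Gp6 were at 0. The 10 stem and multipotent markers summed to 1379 to 1461 CPM in VF, 316 to 563 CPM in E12 and 27 to 42.9 CPM in WT libraries, where Mecom, Tek and Procr were at 0. The 10 neutrophil markers summed to 7144 to 13120 CPM in VF, 2047 to 2309 CPM in E12 and 510 to 7840 CPM in WT libraries. The 8 B and T cell markers in the table summed to 84.4 to 138 CPM in VF, 20.3 to 317 CPM in E12 and 122 to 869 CPM in WT libraries. The part of these cell types in the members' differences was not tested.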

How the data were processed

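Poly(A)-based Smart-Seq2 libraries without strand information or molecular identifiers were made from sorted MEP, per the labels' protocols. The authors deposited whole-number counts per gene with a gene length, and a table of log2 levels, which was used as an alternative. The submitters' processing notes name STAR, limma, GRCm38 and mm10 without versions, and the counting tool is not given in the sources used here. From the counts, edgeR 4.0.16 (R 4.3.3) filtered low genes (filterByExpr), scaled libraries by TMM and fitted all 9 libraries with 1 term per group. Its quasi-likelihood test gave p-values, adjusted by Benjamini-Hochberg over 13608 genes, with calls at 0.05, and was tested on simulated data. CPM use TMM-scaled library sizes. Alternatives were DESeq2 1.42.0, limma 3.58.1, RLE scaling, no filter, length offsets, the 2 groups alone, a replicate block and each library left out. Totals of 19256431 to 39736096 counts per library limit genes with few counts, and floors cover counting error only. The members and gene lists were chosen with earlier results of these data known. Genes named in full were, in each complex, the one with the highest level per length, those with the smallest and largest p in each comparison, and all isoform families. Exact permutation tests of shares used SciPy 1.17.1.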

Additional observations from a re-analysis of the deposited data

How the results depend on the processing

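Against WT, 31 to 36 members were lower and 1 to 2 higher in VF with 1 library left out, with medians of -3.16 to -1.63 on the log2 scale. Of all tested genes, 14.1% to 27.1% were lower and 20.1% to 32.8% higher in those fits. In E12, 20 to 37 members were lower and 1 to 2 higher, with medians of -2.95 to -1.34. Of all tested genes, 9.48% to 24.5% were then lower and 16.4% to 28.4% higher. Between E12 and VF, 0 to 1 members were lower and 0 to 9 higher, where 0.0072% to 10.7% and 0.13% to 12.8% of all tested genes were. Length offsets gave 2 higher calls and a median of -0.76 in VF, 17 lower calls and a median of -0.44 in E12, and 12 higher calls for E12 against VF. Without WT 50 and E12 5 (added after seeing the data), VF had 37 lower and 2 higher (26.6% and 33% of all tested genes). E12 had 36 lower and 2 higher (21.2% and 27%), and the medians were -1.60 in VF and -1.33 in E12. E12 against VF had 2 lower and 8 higher (7.1% and 11.3% of all tested genes). Offsets without both gave 2 higher in VF (median -0.81), 3 higher in E12 (median -0.48), and 2 lower and 25 higher for E12 against VF (8.78% and 17.4% of all tested genes). With only the groups compared, E12 against WT had 22 lower and 0 higher (10.5% and 12.7% of all tested genes), with Cox4i2 no longer among the tested genes. E12 against VF then had 4 lower and 18 higher. DESeq2 called 1 lower and 1 higher for E12 against VF. On the deposited log2 levels, limma called 27 lower and 1 higher in VF (24.3% and 25.5% of all tested genes), with a median of -0.999. In E12 it called 24 lower and 1 higher (20.5% and 21.1%), with a median of -0.90. For E12 against VF it called 1 lower and 3 higher (5.96% and 7.15%), with a median of 0.10. The cause was not tested.

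Signs of single genes turned as follows, as log2 fold changes. With length offsets, Cox7a1 was at 1.18 and Cox7a2l at 0.13 in VF against WT. In E12 against WT, Cox6a1 was at 0.23, Cox7a2 at 0.028, Cox8a at 0.25, Atp5d at 0.40 and Uqcrb at 0.13, and in E12 against VF Atp5l was at 0.11 and Atp5h at 0.14. Offsets without both libraries gave Cox7a1 2.18 and Cox7a2l 0.11 in VF against WT, Cox6a1 0.16, Cox7a1 0.41, Cox7a2 0.013, Cox8a 0.079, Atp5d 0.30 and Uqcrb 0.10 in E12 against WT, and Atp5h 0.17 in E12 against VF. On the deposited levels, Atp5a1 was at 0.91, Atp5b at 0.27 and Cox7a2l at 0.18 in VF against WT, and Atp5a1 at 1.08, Atp5b at 1.08, Atp5f1 at 0.17 and Atp5d at 0.000303 in E12 against WT. In E12 against VF they gave Cox6b1 -0.069, Atp5j -0.089, Atp5k -0.022, Cox4i1 -0.048, Atp5l 0.026, Atp5o -0.083, Atp5j2 -0.013, Uqcr10 -0.24 and Uqcrh -0.15. Without WT 50 and E12 5, Cox7a1 was at 1.15 in VF against WT and Uqcr10 at -0.16 in E12 against VF. DESeq2 put Cox6a2 at -0.0041 in E12 against WT, and the 2 mutant groups alone put Atp5h at 0.0052. With 1 library left out, Cox7a1 ranged from -2.44 to 1.10 in VF against WT and Cox6a2 from -0.52 to 7.56 in E12 against WT. In E12 against VF, Atp5h then ranged from -0.077 to 0.043, Atp5l from -0.32 to 0.15, Uqcr10 from -0.20 to 0.28 and Uqcrh from -0.035 to 0.22. The c subunit shares of Atp5g1 and Atp5g3 changed sign with 1 library left out, ranging from -1.61 to 0.36 percentage points for Atp5g1 and from -0.46 to 1.53 for Atp5g3 in VF against WT, and from -0.40 to 4.44 for Atp5g1 and from -4.45 to 0.34 for Atp5g3 in E12 against WT.

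Replicate numbers 1 and 2 occur in both VF and E12, and same-numbered libraries correlated at 0.00974 and 0.103 in their deviations from the group means. Libraries with different numbers ranged from -0.198 to 0.227, so these values show no pairing by number but cannot exclude it. A fit with the replicate block, which leaves out VF 3 and E12 5, called 0 of 13766 tested genes in either direction for E12 against VF by edgeR. Its 0 calls among the members therefore say nothing particular about them. The members' median was 0.16, with Atp5k at -0.039, Atp5j2 at -0.014, Uqcr10 at -0.27 and Uqcrh at -0.11.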
